A study of Auricularia auricula-judae with 2 samples.

Results

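Cytochrome P450 genes were described in the edible jelly fungus Auricularia auricula-judae, the wood ear. They were taken as assembled transcripts whose Swiss-Prot description names a P450 enzyme, an O-methylsterigmatocystin oxidoreductase, an ent-kaurene oxidase or a fumitremorgin C synthase, without the separate NADPH--cytochrome P450 reductases. The text match found 352 of 57717 transcripts, which belong to 136 of 43428 assembled genes. RNA-seq had been run on 1 library from fruit bodies of mycelium given 200 Gy of gamma radiation on agar, and on 1 library from fruit bodies of mycelium that was not irradiated. Mycelium of both groups grew at 25 °C for 14 days on potato dextrose agar and for 30 days on sawdust with rice bran, and fruit bodies formed at 18 °C under 90% humidity. The labels give no strain and do not say how many fruit bodies went into a library. RNA came from tissue grown after the exposure, so the question is which levels differ in fruit bodies once their parent mycelium had been irradiated.

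P450 enzymes are haem proteins that insert an oxygen atom into a substrate, drawing electrons from NADPH through a reductase partner. Wood-decay fungi carry large P450 families, which are known for breaking down wood phenols and foreign compounds, for hydroxylating fatty acids, for making ergosterol and for building secondary metabolites. A symbol here names the closest Swiss-Prot protein, often of a distant species. Many genes therefore share the symbol ordA, and that symbol does not mean that this mushroom makes aflatoxin.

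Each group has 1 library, so no value below has a replicate check and no test between groups was run. Levels are the authors' FPKM, fragments per kilobase of transcript scaled to library size, summed over the matched isoforms of an assembled gene. The log2 ratio is that of FPKM + 1, irradiated over unirradiated, and a gene was called higher or lower where that ratio reached 2-fold. The authors' 2 further values per transcript behave as reads divided by a factor per library and are called scaled reads. Their ratio got an exact Clopper-Pearson 95% interval, called the counting interval. It covers counting error only, reads without molecular identifiers are not independent molecules, and an FPKM ratio can lie outside it. The scaled reads of the whole table summed to 8404057 in the irradiated and 8872431 in the unirradiated library. In bulk tissue, fewer cells of a type and less RNA per cell cannot be told apart. No list of mycelium markers was used, and the text match for fruit body genes also takes in plant lectin receptor kinases. The values that follow therefore do not separate fruit body from mycelium. Of genes described as lectins or fruiting body proteins, 8 of 10 had 100 or more scaled reads, and their summed level was 666 FPKM in the irradiated and 561 FPKM in the unirradiated library. Of these 8, 4 had log2 ratios above 0 and 4 below 0, and LECRK54 (TBIU007473), a match to a plant lectin receptor kinase, was lower, with 6.40 FPKM in the irradiated and 20.2 FPKM in the unirradiated library. The fruiting body protein SC7 (TBIU011590) had 256 FPKM in the irradiated and 137 FPKM in the unirradiated library. The hydrophobin SC3 (TBIU005515), a cell wall coat protein, had 32.7 FPKM in the irradiated and 39.7 FPKM in the unirradiated library.

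Of the 136 P450 genes, 72 had 100 or more scaled reads and are called measured here. None of the 72 was listed at 0 in either library, 2 had under 50 scaled reads in the irradiated library and 2 had under 50 in the unirradiated library. The other 64 genes held 0.752% of the members' scaled reads, with a median of 7.04 and at most 94.3 scaled reads each. Of these 64, 9 were listed at 0 in the irradiated library, 13 were listed at 0 in the unirradiated library and 42 were above 0 in both. They reached at most 13.0 FPKM in the irradiated and 15.2 FPKM in the unirradiated library, and 27 of them carry the symbol ordA. Transcript lengths were estimated from scaled reads and FPKM. The main isoform of a measured gene had a median estimated length of 1832 bases, and 5 of 72 were under 1000 bases, shorter than a typical P450 coding sequence.

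Most measured P450 genes differed little between the libraries, and a few differed strongly in either direction. Of 72 genes, 7 were higher in the irradiated library by 2-fold or more, and 6 were lower by as much. These are 9.72% and 8.33% of the P450 genes, against 9.32% higher and 8.68% lower over all 8249 measured genes of the table, so by matched isoforms the share of strongly different genes was near the background. The median log2 ratio was 0.22 over the P450 genes and 0.10 over all measured genes, but with the main isoform of each gene alone it was 0.06 and 0.11, the reverse order. Log2 ratios were above 0 in 48 of 72 P450 genes (66.7%), against 55.8% of all genes. The counting interval lay above 0 for 34 P450 genes and below 0 for 23, against 38.6% and 34.8% of all genes. Where all isoforms of a gene were summed, also those that the text did not match, 75 genes were measured, 11 of them higher and 7 lower by 2-fold or more. On that measure, which matches how the background was summed, 14.7% of these genes were higher and 9.33% lower. It also counts isoforms that are described otherwise or not at all. Matched isoforms hold 0.57% of the assembled gene's reads for TBIU024986 and 0.17% for TBIU027618. For TBIU017902 they hold 27.4%, and other isoforms there carry the symbol CHI2. The 4 further higher genes were 3 ordA genes, described with the other ordA genes, and the CYP3A24 gene TBIU058251, with a log2 ratio of 0.78 over matched and 1.23 over all isoforms. The further lower gene was the CYP734A1 gene TBIU023513, with a log2 ratio of -1.69 over matched and -1.10 over all isoforms.

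**Figure D1:**
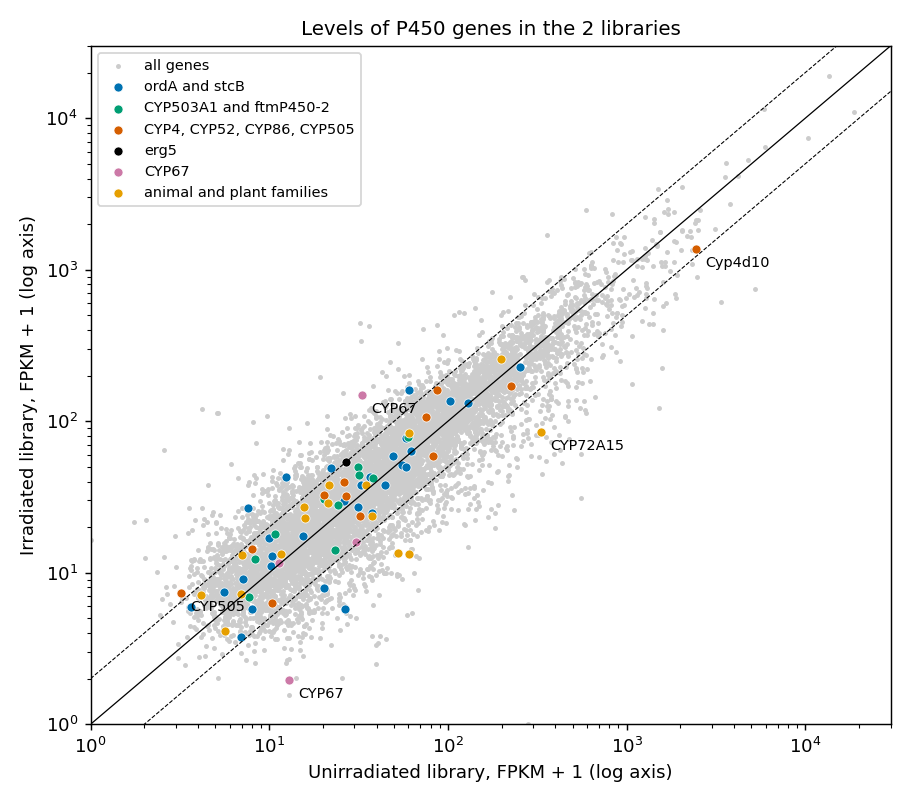
FPKM + 1 of 72 measured P450 genes (coloured points, by the family of the closest match) in the irradiated library (vertical log axis) and the unirradiated library (horizontal log axis), over all 8249 measured genes (grey, all isoforms summed). The solid line marks equal levels and the dashed lines mark 2-fold. Most P450 genes lie between the dashed lines, Cyp4d10 is the most abundant in both libraries, and CYP72A15 and a CYP67 gene lie below the lower dashed line.

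The sum of FPKM over the 72 genes was 4573 in the irradiated and 5436 in the unirradiated library, or 0.465% and 0.560% of each library's total FPKM. A large share of that sum came from 1 gene. Without it, the sum was 3201 FPKM in the irradiated and 2988 FPKM in the unirradiated library, so the direction of the sum rests on that gene.

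That gene, of the P450 family CYP4 whose members in animals hydroxylate fatty acids at the end of the chain (Cyp4d10, TBIU021397), had 1372 FPKM in the irradiated and 2448 FPKM in the unirradiated library. Its log2 ratio was -0.83, with a counting interval of -0.95 to -0.90, and it made up 30.0% of P450 FPKM in the irradiated and 45.025% in the unirradiated library. It was the most abundant P450 gene in both libraries and remained within 2-fold. Both of its isoforms were lower in the irradiated library. The isoform closest to Cyp4d10 had 377 FPKM in the irradiated and 684 FPKM in the unirradiated library (log2 ratio -0.86). The other, closest to CYP4F22 and estimated at 557 bases (TBIU021398), had 995 FPKM in the irradiated and 1764 FPKM in the unirradiated library (log2 ratio -0.83).

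The next most abundant genes ranked differently in the 2 libraries. A gene closest to the Arabidopsis P450 CYP72A15 (TBIU008968) had 84.3 FPKM in the irradiated and 330 FPKM in the unirradiated library (log2 ratio -1.96, counting interval -2.14 to -1.96). It was the P450 gene of rank 11 in the irradiated and of rank 2 in the unirradiated library. With 1 isoform and an estimated length of 1682 bases, it was the most abundant of the 6 lower genes. The CYP734A1 gene TBIU009975, whose match is in Arabidopsis an enzyme that inactivates the steroid hormones called brassinosteroids, held rank 2 in the irradiated library at 257 FPKM, against 198 FPKM in the unirradiated library (log2 ratio 0.38). The most abundant ordA gene (TBIU015549) had 227 FPKM in the irradiated and 252 FPKM in the unirradiated library (log2 ratio -0.15). CYP86A2 (TBIU017783), named for a plant hydroxylase of fatty acids, had 169 FPKM in the irradiated and 225 FPKM in the unirradiated library (log2 ratio -0.41). Its matched isoforms hold 53.1% of the assembled gene's reads, and another isoform, described as 11-oxo-beta-amyrin 30-oxidase (CYP72A154, TBIU017784), had 158 FPKM in the irradiated and 188 FPKM in the unirradiated library. Of the 5 genes with the highest mean level, 4 had log2 ratios and counting intervals below 0.

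**Figure D2:**
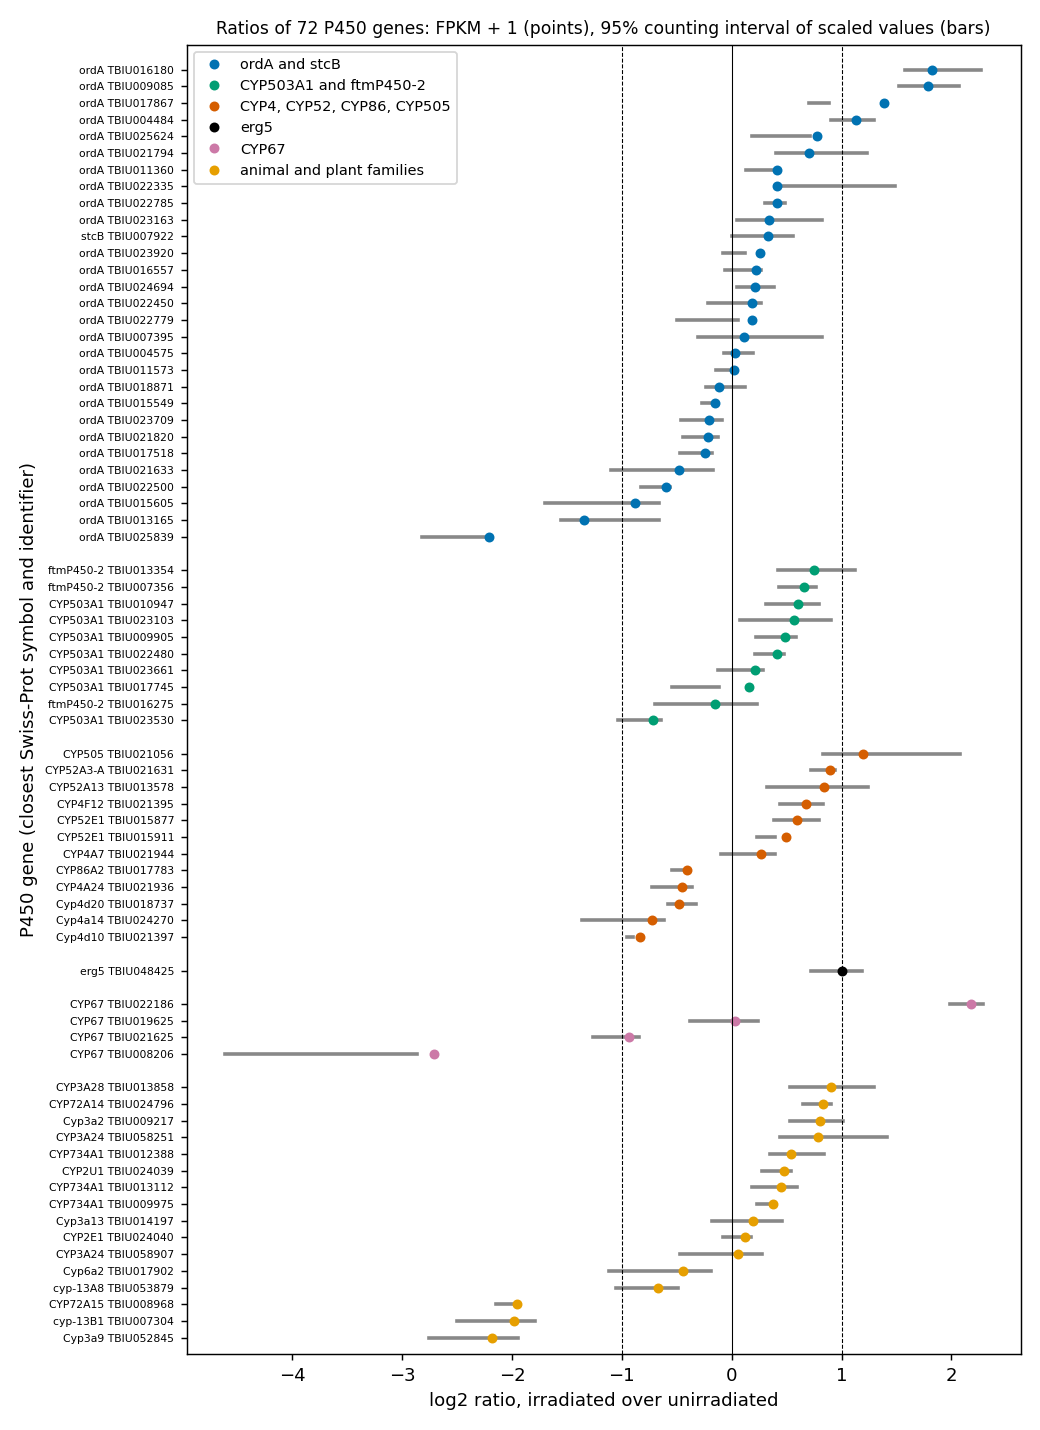
Log2 ratio of irradiated over unirradiated FPKM + 1 for each of 72 measured P450 genes (points), grouped by the family of the closest match, with the 95% counting interval of the ratio of scaled reads (bars). Dashed lines mark 2-fold. The ordA genes run from -2.21 to 1.82, the CYP67 genes from -2.71 to 2.17, and the genes closest to CYP503A1 and ftmP450-2 all lie within 2-fold.

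Genes closest to ordA made up the largest group. In Aspergillus, ordA encodes the oxidoreductase of the last steps of aflatoxin synthesis. There were 28 measured ordA genes, with a median of 32.8 FPKM in the irradiated and 28.0 FPKM in the unirradiated library. Of these, 4 were higher and 2 lower by 2-fold or more (9.32% and 8.68% of all genes), while 18 had a log2 ratio above 0 (55.8% of all genes) and 10 below 0. These counts use matched isoforms, while the shares of all genes sum all isoforms. Over all isoforms, TBIU025624, TBIU021794 and TBIU022335 were higher too, at log2 ratios of 1.80, 1.57 and 1.31. The counting interval lay above 0 for 11 and below 0 for 9 of the 28. Their summed level was 1340 FPKM in the irradiated and 1167 FPKM in the unirradiated library. Over the 28 genes the log2 ratio had a median of 0.18.

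The highest ratio among the ordA genes belonged to TBIU016180, with 25.9 FPKM in the irradiated and 6.61 FPKM in the unirradiated library. Its log2 ratio was 1.82 and its counting interval 1.58 to 2.27. TBIU009085 had 41.9 FPKM in the irradiated and 11.4 FPKM in the unirradiated library (log2 ratio 1.79, counting interval 1.52 to 2.07). Both intervals lay wholly beyond 2-fold. The other 2 higher genes were less firm. TBIU017867, the most abundant of the 4, had 159 FPKM in the irradiated and 59.9 FPKM in the unirradiated library (log2 ratio 1.39), but its counting interval of 0.71 to 0.89 lay under 2-fold. One isoform (TBIU017864) contributed 49.6 FPKM in the irradiated library from 11.6 scaled reads and was listed at 0 in the unirradiated library. With isoforms under 20 scaled reads left out, the log2 ratio of the gene was 0.85. TBIU004484 had 47.8 FPKM in the irradiated and 21.3 FPKM in the unirradiated library (log2 ratio 1.13), with a counting interval of 0.91 to 1.29 and a main isoform at 0.83.

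In the opposite direction, the ordA gene TBIU025839 had 4.75 FPKM in the irradiated and 25.6 FPKM in the unirradiated library, at a log2 ratio of -2.21 (counting interval -2.82 to -2.24). Its main isoform alone had a log2 ratio of -1.80. The other lower gene, TBIU013165, had 6.95 FPKM in the irradiated and 19.2 FPKM in the unirradiated library (log2 ratio -1.34, counting interval -1.55 to -0.66). It sums 9 isoforms, and without those under 20 scaled reads the log2 ratio was -0.61, within 2-fold. The gene TBIU015605 had 2.79 FPKM in the irradiated and 5.96 FPKM in the unirradiated library, a log2 ratio of -0.88 just within 2-fold. Its ratio lay beyond 2-fold by scaled reads, at -1.15, and with a pseudocount of 0.1 FPKM, at -1.07. The ordA genes at 100 FPKM or more in both libraries were all within 2-fold. Besides TBIU015549 they were TBIU011573, with 130 FPKM in the irradiated and 128 FPKM in the unirradiated library, and TBIU022785, with 135 FPKM in the irradiated and 101 FPKM in the unirradiated library.

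The remaining ordA genes had log2 ratios between -0.60 (TBIU022500) and 0.78 (TBIU025624). TBIU022500 had 23.8 FPKM in the irradiated and 36.7 FPKM in the unirradiated library, and its counting interval was -0.83 to -0.56. Among the more abundant, TBIU011360 had 77.1 FPKM in the irradiated and 57.5 FPKM in the unirradiated library (log2 ratio 0.42), and TBIU004575 had 62.9 FPKM in the irradiated and 61.5 FPKM in the unirradiated library (log2 ratio 0.03). For 3 ordA genes the ratio depended on isoforms that carry no description. TBIU025624, TBIU021794 and TBIU022335 had log2 ratios of 0.78, 0.70 and 0.41 over their matched isoforms, and of 1.80, 1.57 and 1.31 over all isoforms. In TBIU025624 the undescribed isoform TBIU059895 had 15.7 FPKM in the irradiated library from 3.87 scaled reads and was listed at 0 in the unirradiated library. In TBIU021794 the undescribed isoform TBIU021793 was better covered, with 16.7 FPKM (236 scaled reads) in the irradiated and 4.0 FPKM (59.4 scaled reads) in the unirradiated library. The only measured stcB gene (TBIU007922), named for a P450 of the related sterigmatocystin pathway, had 12.0 FPKM in the irradiated and 9.3 FPKM in the unirradiated library (log2 ratio 0.33).

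Copies of CYP67 spanned a wider range of log2 ratios, -2.71 to 2.17, than copies of any other symbol with 2 or more measured genes. CYP67 is known from a plant-parasitic rust fungus, where its transcript appears during growth in the plant. The copy TBIU022186 had 148 FPKM in the irradiated and 32.0 FPKM in the unirradiated library (log2 ratio 2.17, counting interval 1.99 to 2.28). That was the highest ratio of the 72 P450 genes, and it moved the copy to rank 7 in the irradiated library, against rank 27 in the unirradiated library. Each of its 3 matched isoforms was higher in the irradiated library, at log2 ratios of 1.54, 1.85 and 2.52. Its other isoforms, which are described as tryprostatin B 6-hydroxylase, a P450 under another name, had 23.1 FPKM in the irradiated and 4.96 FPKM in the unirradiated library (log2 ratio 2.01).

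The copy TBIU008206 stood at the other end, with 0.97 FPKM in the irradiated and 11.9 FPKM in the unirradiated library. Its log2 ratio of -2.71 was the lowest of the 72 P450 genes at a pseudocount of 1 FPKM, and it rests on 12.7 scaled reads in the irradiated and 165.9 in the unirradiated library (counting interval -4.61 to -2.86). With a pseudocount of 5 FPKM its log2 ratio was -1.5, and CYP72A15 was lowest at -1.91, while by main isoforms Cyp3a9 was lowest at -2.18. One of its isoforms (TBIU008207) was listed at 0 in the irradiated library and at 4.48 FPKM in the unirradiated library, and the other was also lower, at -2.09. The copy TBIU021625 had 14.98 FPKM in the irradiated and 29.45 FPKM in the unirradiated library (log2 ratio -0.93, counting interval -1.26 to -0.84), and with the median of all genes subtracted its log2 ratio was -1.03. Both of its isoforms were lower, at -0.88 and -0.90. The copy TBIU019625 had 10.6 FPKM in the irradiated and 10.3 FPKM in the unirradiated library (log2 ratio 0.03). That even sum hid isoforms that differed, since 1 had 4.81 FPKM in the irradiated and 10.3 FPKM in the unirradiated library, and the other (TBIU019626) had 5.78 FPKM in the irradiated library and was listed at 0 in the unirradiated library. The 4 copies come from 4 assembly clusters, and reads that fit several clusters were not traced.

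**Figure D3:**
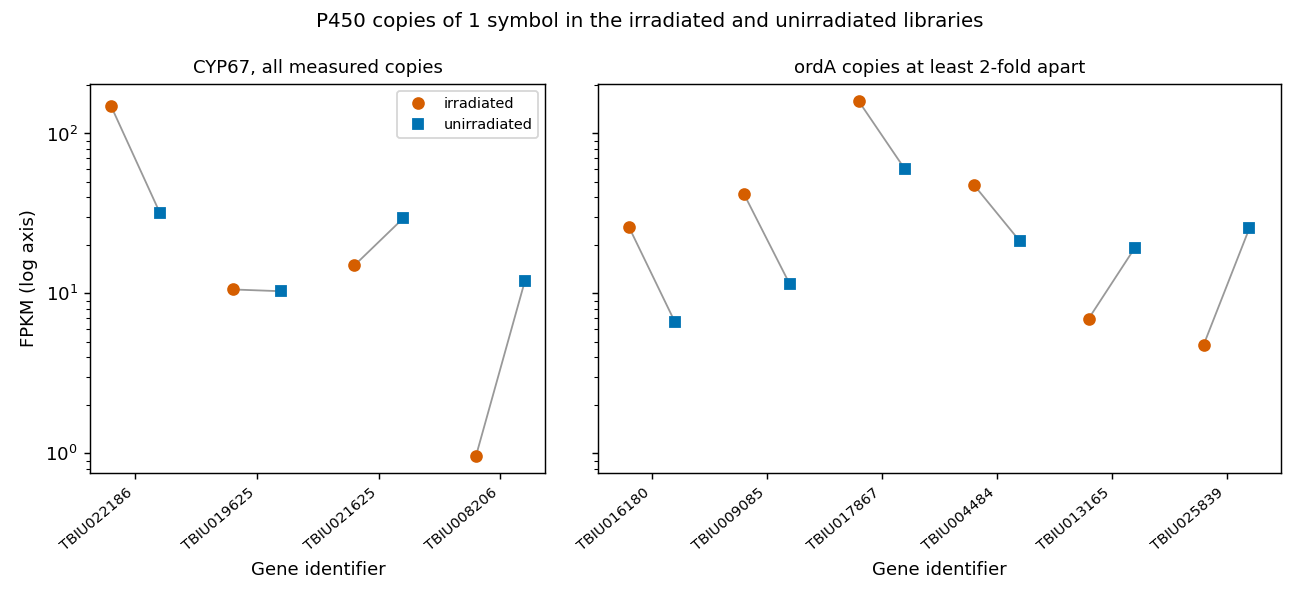
FPKM (log axis) of the 4 measured CYP67 genes and of the 6 ordA genes at least 2-fold apart, with the irradiated library (circles) left of the unirradiated library (squares) for each gene. For CYP67, TBIU022186 is higher and TBIU008206 lower in the irradiated library. For ordA, 4 genes are higher and 2 lower.

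Of 7 symbols with 2 or more measured genes, 4 had copies with log2 ratios on both sides of 0, and 2 of them, ordA and CYP67, had copies at least 2-fold apart in opposite directions. The other 2 were CYP503A1 and ftmP450-2, and the counting interval of the only ftmP450-2 copy below 0 covered 0. How often symbols of the whole table have such copies was not computed, so whether this is particular to P450 genes was not tested. Over all measured genes, 55.8% had log2 ratios above 0, and 9.32% were higher and 8.68% lower by 2-fold or more. Measured copies of CYP734A1, CYP3A24 and CYP52E1 all had log2 ratios above 0. They ran from 0.38 to 0.54 for 3 CYP734A1 genes, from 0.06 to 0.78 for 2 CYP3A24 genes and from 0.50 to 0.60 for 2 CYP52E1 genes. A further CYP734A1 gene (TBIU023513), under the minimum with 89.5 scaled reads, lay on the other side. It had 1.08 FPKM in the irradiated and 5.69 FPKM in the unirradiated library (log2 ratio -1.69, counting interval -3.38 to -1.61). Sharing a symbol means only a shared closest match, and with no sequences used here the copies' identity to each other was not measured.

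Genes closest to ent-kaurene oxidase (CYP503A1), which in the rice pathogen Fusarium fujikuroi takes part in gibberellin synthesis, mostly had log2 ratios above 0. Of 7 genes, 6 had a log2 ratio above 0 (55.8% of all genes), with a median of 0.41 against 0.10 over all genes. None was 2-fold apart, against 9.32% higher and 8.68% lower over all genes. The counting interval lay above 0 for 4 of the 7 and below 0 for 2. The most abundant (TBIU022480) had 78.3 FPKM in the irradiated and 58.5 FPKM in the unirradiated library (log2 ratio 0.41, counting interval 0.21 to 0.47). The lowest (TBIU023530) had 13.2 FPKM in the irradiated and 22.4 FPKM in the unirradiated library (log2 ratio -0.72). It holds 40.1% of its assembled gene's reads, and over all isoforms the log2 ratio was -0.42. One gene (TBIU017745) had an FPKM log2 ratio of 0.16 and a counting interval of -0.55 to -0.11, so the measures differ in sign, as they did for 5 of the 72 P450 genes, all with FPKM log2 ratios of 0.18 or less. Genes closest to fumitremorgin C synthase (ftmP450-2), an enzyme of an Aspergillus indole alkaloid, had log2 ratios of 0.75, 0.66 and -0.15 (TBIU013354, TBIU007356 and TBIU016275). The second of these, the most abundant, had 48.7 FPKM in the irradiated and 30.5 FPKM in the unirradiated library. The counting interval of TBIU016275, -0.70 to 0.23, covered 0. In TBIU013354 the main isoform alone had a log2 ratio of -0.34.

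Among the 12 measured genes of families known for fatty acid hydroxylation, 7 had log2 ratios above 0 (58.3%), near the 55.8% of all genes. The counting interval lay above 0 for 6 of the 12 and below 0 for 5. Genes closest to the CYP52 family, which in Candida yeasts oxidises alkanes and fatty acids, were above 0. CYP52A3-A (TBIU021631) had 160.48 FPKM in the irradiated and 85.6 FPKM in the unirradiated library (log2 ratio 0.90, counting interval 0.73 to 0.94). CYP52A13 (TBIU013578) had 13.4 FPKM in the irradiated and 7.05 FPKM in the unirradiated library (log2 ratio 0.84). The 2 genes of CYP52E1 (TBIU015911 and TBIU015877) had log2 ratios of 0.50 and 0.60, the first at 106 FPKM in the irradiated and 74.9 FPKM in the unirradiated library. All 4 counting intervals lay above 0, and none of the 4 genes was 2-fold apart.

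The CYP505 gene TBIU021056, whose match in Fusarium oxysporum is a fusion of P450 and reductase that hydroxylates fatty acids within the chain, was one of the 7 higher genes, with 6.36 FPKM in the irradiated and 2.21 FPKM in the unirradiated library. Its log2 ratio was 1.20 and its counting interval 0.83 to 2.08, from 84.3 scaled reads in the irradiated and 31.0 in the unirradiated library, and with a pseudocount of 5 FPKM the ratio was 0.66. Genes closest to the CYP4 family went both ways. Besides Cyp4d10, they were Cyp4d20 (TBIU018737, log2 ratio -0.48), Cyp4a14 (TBIU024270, -0.72), CYP4A24 (TBIU021936, -0.45), CYP4A7 (TBIU021944, 0.27) and CYP4F12 (TBIU021395, 0.68). The CYP4A24 and CYP4A7 genes share an assembly cluster. CYP4A24 had 22.7 FPKM in the irradiated and 31.3 FPKM in the unirradiated library, and CYP4A7 had 31.2 FPKM in the irradiated and 25.75 FPKM in the unirradiated library, so they lay on opposite sides of 0. The counting interval of CYP4A7 covered 0.

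The sterol gene of the family was at the 2-fold line. A gene closest to erg5 (TBIU048425), the P450 of a late desaturation step of ergosterol synthesis in fission yeast, had 52.97 FPKM in the irradiated and 25.98 FPKM in the unirradiated library. Its log2 ratio was 1.0 with a counting interval of 0.73 to 1.19, and it lay within 2-fold by scaled reads (0.95), with the median of all genes subtracted (0.90) and with a pseudocount of 5 FPKM (0.90). Its only transcript had an estimated length of 1020 bases. The 5 other genes of this description had at most 5.81 scaled reads each.

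Genes closest to other animal and plant P450s held 3 of the 6 lower genes and none of the 7 higher ones. These 3 are 18.75% of the 16 genes in the group, against 8.68% lower and 9.32% higher over all genes. Most of the group lay on the other side, since log2 ratios were above 0 in 11 of 16 (55.8% of all genes). The group's median log2 ratio was 0.29, against 0.10 over all genes. Besides CYP72A15, the lower genes were Cyp3a9 (TBIU052845), a relative of drug-oxidising liver enzymes in the rat, and cyp-13B1 (TBIU007304), named in the worm Caenorhabditis elegans. Cyp3a9 had 12.3 FPKM in the irradiated and 59.3 FPKM in the unirradiated library (log2 ratio -2.18, counting interval -2.76 to -1.94). The gene cyp-13B1 had 12.4 FPKM in the irradiated and 51.9 FPKM in the unirradiated library (log2 ratio -1.98, counting interval -2.50 to -1.79). Both are short, with estimated lengths of 597 and 795 bases, and whether they belong to 1 longer transcript was not tested. With genes under 1000 bases left out, 4 of 67 P450 genes were lower by 2-fold or more, against 8.68% of all genes of any length. Also short, at an estimated 888 bases, cyp-13A8 (TBIU053879) had 22.8 FPKM in the irradiated and 36.8 FPKM in the unirradiated library (log2 ratio -0.67, counting interval -1.05 to -0.49).

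The highest ratios of this group were within 2-fold over matched isoforms. Over all isoforms the CYP3A24 gene TBIU058251 passed 2-fold (log2 ratio 1.23), through an undescribed isoform (TBIU058252) with 7.58 scaled reads in the irradiated library and listed at 0 in the unirradiated library. Its matched isoforms had 6.15 FPKM in the irradiated and 3.15 FPKM in the unirradiated library. CYP3A28 (TBIU013858) had 12.1 FPKM in the irradiated and 6.02 FPKM in the unirradiated library (log2 ratio 0.90), and its main isoform alone had a log2 ratio of 1.89. Cyp3a2 (TBIU009217) had 26.3 FPKM in the irradiated and 14.6 FPKM in the unirradiated library (log2 ratio 0.81). CYP72A14 (TBIU024796), a plant relative of CYP72A15, had 37.1 FPKM in the irradiated and 20.5 FPKM in the unirradiated library (log2 ratio 0.83, counting interval 0.65 to 0.90). These symbols are of the same subfamily as genes on the lower side, so members of CYP3A and of CYP72A lay on both sides of the unirradiated level. A pair in 1 assembly cluster, CYP2U1 (TBIU024039) and CYP2E1 (TBIU024040), had log2 ratios of 0.47 and 0.12. Besides TBIU009975, the CYP734A1 genes TBIU013112 and TBIU012388 had 28.0 and 22.1 FPKM in the irradiated and 20.2 and 14.9 FPKM in the unirradiated library, and the counting intervals of all 3 lay above 0.

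Isoforms of 1 gene could differ in direction, at shares near those over all genes. Of 46 measured P450 genes with 2 or more matched isoforms of 50 or more scaled reads, 23 had isoforms on both sides of 0, and 4 had isoforms at least 2-fold apart in opposite directions. These are 50% and 8.70%, against 48.1% and 8.14% of 3083 such genes in the whole table. In CYP72A14 the isoform TBIU024795 had 4.62 FPKM in the irradiated library and was listed at 0 in the unirradiated library, and TBIU024798 had 1.72 FPKM in the irradiated and 4.51 FPKM in the unirradiated library. The main isoform, TBIU024796 itself, stood at -0.10 on the log2 scale, against 0.83 for the gene. In the ordA gene TBIU016557 the isoform TBIU016556 had 9.67 FPKM in the irradiated and 1.97 FPKM in the unirradiated library, while TBIU016559 had 1.23 FPKM in the irradiated and 8.09 FPKM in the unirradiated library. The sum over its isoforms had a log2 ratio of 0.22. In the ordA gene TBIU022785 the isoform TBIU022790 was listed at 0 in the irradiated and at 6.51 FPKM in the unirradiated library, and most other isoforms had log2 ratios above 0. No sequences were used and the tool for quantification was not given, so how reads were divided between isoforms is not known. A ratio of 1 isoform should therefore be read with more caution than that of the gene.

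**Figure D4:**
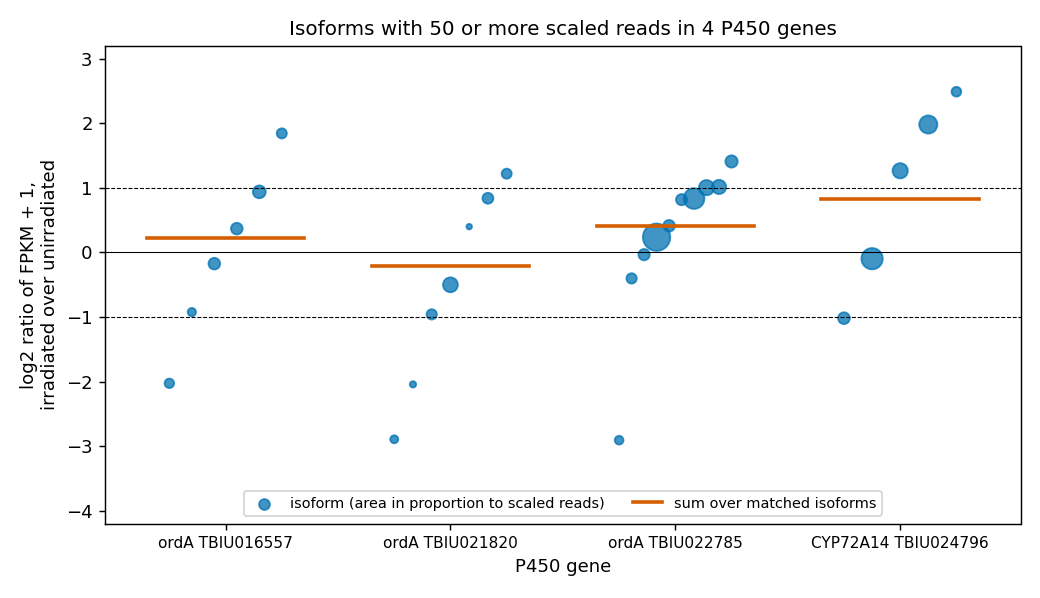
Log2 ratio of irradiated over unirradiated FPKM + 1 for isoforms with 50 or more scaled reads (circles, area in proportion to scaled reads) in the 4 P450 genes whose isoforms were at least 2-fold apart in opposite directions. Orange lines mark the ratio of the sum over all matched isoforms, which lies between -0.21 and 0.83, and dashed lines mark 2-fold. Isoforms listed at 0 in 1 library are drawn at the ratio that the pseudocount of 1 FPKM gives.

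The authors' deposited table also gives p-values per transcript, from 1 library per group. A p-value of 0.05 or less stood beside 31 of 352 P450 transcripts (8.81%) in the authors' deposited table, against 2.33% of all transcripts, and every q-value was 1. These shares are not matched for depth, since 72 of 136 P450 genes were measured, against 8249 of 43428 genes in the whole table. No share among transcripts of like depth was computed. Of the 31 P450 transcripts, 14 were higher and 17 lower in the irradiated library, and 27 were listed at 0 FPKM in 1 library. They belong to 19 genes. For 25 of the 31 transcripts the gene was measured and within 2-fold once its isoforms were summed.

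Genes that serve P450 enzymes were read from lists of descriptions. The electron donor itself, NADPH--cytochrome P450 reductase, was described for 2 transcripts only, with 1.94 scaled reads in the irradiated library for TBIU003183 and 2.07 in the unirradiated library for TBIU036751, which is too few to compare. Of 14 measured genes of redox partners and haem synthesis, none was higher and 1 was lower by 2-fold or more (9.32% and 8.68% of all genes), with a median log2 ratio of -0.0093. The cytochrome b5 reductase gene MCR1.1 (TBIU004802), whose product passes electrons to cytochrome b5, had 878 FPKM in the irradiated and 503 FPKM in the unirradiated library (log2 ratio 0.80). HEM13 (TBIU015153), coproporphyrinogen oxidase of haem synthesis, had 147 FPKM in the irradiated and 95.8 FPKM in the unirradiated library (log2 ratio 0.61). On the lower side, ferrochelatase (fech, TBIU024281), which inserts iron to form haem, had a log2 ratio of -0.53. A porphobilinogen deaminase gene (HEM3, TBIU009306) had 31.2 FPKM in the irradiated and 75.3 FPKM in the unirradiated library (log2 ratio -1.24), at an estimated length of 379 bases.

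Enzymes of classes that act on foreign compounds or on P450 products had log2 ratios above 0 in 20 of 26 measured genes, but the counting interval lay above 0 for 12, below 0 for 5 and over 0 for 9. They are glutathione transferases, epoxide hydrolases, flavin monooxygenases and 1 gene (GUX2, TBIU008848) whose match adds glucuronic acid to xylan. Of the 26, 4 were higher (15.4%, against 9.32% of all genes) and none was lower by 2-fold or more (8.68% of all genes), with a median log2 ratio of 0.41, against 0.10 for all genes. The highest was a flavin-containing monooxygenase gene (At1g12200, TBIU012551), with 9.19 FPKM in the irradiated and 2.95 FPKM in the unirradiated library (log2 ratio 1.37). A glutathione transferase gene (GSTF1_ARATH, TBIU008383) had 82.3 FPKM in the irradiated and 32.2 FPKM in the unirradiated library (log2 ratio 1.33). The lowest were an epoxide hydrolase (EPHX2, TBIU009549, log2 ratio -0.61) and a second GSTF1_ARATH gene (TBIU017675, -0.53). Copies of EPHX2 thus lay on both sides of 0, since another (TBIU015940) had 18.9 FPKM in the irradiated and 7.38 FPKM in the unirradiated library (log2 ratio 1.25).

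Of 6 measured ergosterol genes other than erg5, none was 2-fold apart, against 9.32% higher and 8.68% lower over all genes. Log2 ratios were above 0 in 5 of the 6 (55.8% of all genes), with a median of 0.39 against 0.10 over all genes. The counting interval lay above 0 for 3, below 0 for 1 and over 0 for 2. ERG4 (TBIU010404), the last reductase of the pathway in yeast, had 688 FPKM in the irradiated and 469.6 FPKM in the unirradiated library (log2 ratio 0.55). A gene of the sterol isomerase ERG2 (TBIU023788) had a log2 ratio of 0.71, and others had 0.07 (TBIU015789) and -0.96 (TBIU015788, estimated at 319 bases). Of 4 measured terpene synthesis genes, the farnesyl pyrophosphate synthase ERG20 (TBIU009365), which makes the precursor of sterols and sesquiterpenes, had 108 FPKM in the irradiated and 33.1 FPKM in the unirradiated library. Its log2 ratio was 1.67 with a counting interval of 1.45 to 1.80. The geranylgeranyl pyrophosphate synthase carG (TBIU010205) had a log2 ratio of 0.59. The sesquiterpene synthase COP3 (TBIU051910) had 9.15 FPKM in the irradiated and 24.7 FPKM in the unirradiated library (log2 ratio -1.34). The list's text also matched trichodiene oxygenase (TRI4, TBIU016166, log2 ratio -0.40), which is itself a P450 enzyme.

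**Figure D5:**
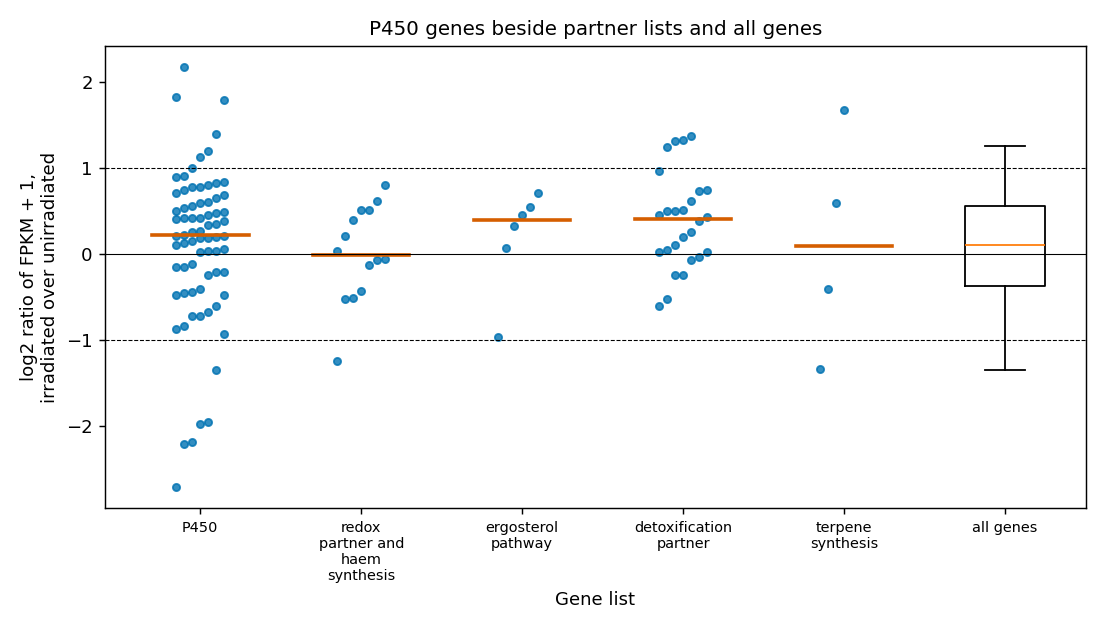
Log2 ratio of irradiated over unirradiated FPKM + 1 for measured P450 genes and for the 4 partner lists (points, with the list median in orange), beside all measured genes (box from the lower to the upper quartile with its median, whiskers at percentiles 5 and 95). P450 genes span -2.71 to 2.17, with a median of 0.22 against 0.10 for all genes.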

How the data were processed

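The authors deposited 1 table with 57717 assembled transcripts and FPKM values per library, given to 2 decimals per the file headers. Columns were assigned to libraries by the sample names in the headers. Assembler, aligner and the tool for quantification were not given in the sources used here. For each transcript the authors deposited, besides FPKM, a pair of values of unnamed unit (scaled reads), a log2 fold change, and p-values and q-values from a test that the headers do not name. The log2 fold change is that of the second value over the first. The pair carries no sample name. It was read as irradiated over unirradiated because it is listed at 0 with the named FPKM columns, or above 0 with them, for 99.95% of transcripts in the irradiated and 99.93% in the unirradiated library. It served as the depth behind each value and as a comparison made by the authors.

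Matched isoforms were summed per assembled gene with Python 3.11.15, pandas 2.3.3, numpy 2.4.6 and SciPy 1.17.1. A pseudocount of 1 FPKM, a minimum of 100 scaled reads over both libraries and a 2-fold threshold (log2 of 1) were used. The comparison over all genes summed all isoforms of each gene. Lengths were estimated by taking the sum of a library's scaled reads as its depth. The isoform with the most scaled reads gave a gene's identifier and symbol, and 12 of 72 measured genes hold isoforms of several symbols. Counts and intervals were checked on simulated reads drawn with counting error alone. That check does not show how the intervals behave on the authors' scaled values. The rule for genes named took the 10 highest and 10 lowest log2 ratios, the 5 most abundant of each library, every copy of a symbol at least 2-fold apart in both directions, and the 2 highest and 2 lowest of each partner list. Other genes were named after their values were seen. The members, lists and rules were chosen with earlier results of these data known, and the choice of matched isoforms alone was made after values had been seen. Alternatives were other pseudocounts, minimums, scalings, isoform choices and membership rules, of which all isoforms, isoforms of 20 or more scaled reads, other names and lengths were added after seeing the data. No sequences or genome coordinates were used here.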

Additional observations from a re-analysis of the deposited data

How the results depend on the processing

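The counts of P450 genes at least 2-fold higher and lower (7 and 6) stayed within 1.5 times, and the median of 0.22 between 0.06 and 0.26, under the alternatives not named here. Without a minimum, P450 counts were 26 higher and 17 lower of 136, against 32.6% and 27.3% of all genes, and 11 symbols had copies on both sides of 0. Only descriptions with the words cytochrome P450 gave 2 higher of 32 genes and 1 such symbol, and all isoforms gave 11 higher (added after seeing the data). With the median of all genes subtracted, 6 P450 genes were higher and 7 lower, and all genes split into 598 higher and 853 lower, against 769 and 716. By scaled reads, 5 P450 genes were higher and 8 lower (6.94% and 11.1%), against 8.56% and 10.4% of all genes. Without isoforms under 20 scaled reads (added after seeing the data), 6 were higher and 5 lower. Of the checks on single named genes, 10 moved past 2-fold, 9 moved within it and none with a 2-fold ratio changed sign.

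The lists of redox and haem, ergosterol, detoxification and terpene genes hold 55, 33, 54 and 17 matched genes. Without a minimum, they had 14, 12, 18 and 4 higher and 17, 8, 3 and 7 lower. Over all genes, 32.6% were then higher and 27.3% lower. At 20 scaled reads, 1 ergosterol, 2 detoxification and 3 terpene genes were lower, against 11.7% of all genes. At a mean of 10 FPKM, 2 redox and haem genes and 1 ergosterol gene were lower, against 12.1% of all genes. Also 1 ergosterol gene was lower with the median subtracted and by scaled reads, and 2 detoxification genes were higher with a pseudocount of 5 FPKM. With the main isoform alone, the redox and haem median was 0.25, and 2 terpene genes were higher with a list median of 0.30. The terpene median of 0.10 rests on 4 genes: it was 0.10 and 0.065 with pseudocounts of 0.1 and 5, 0.020 by scaled reads, -0.0088 with the median subtracted, -0.40 without a minimum and at 10 FPKM, and -0.45 at 20 scaled reads. The cause of these shifts was not tested. No paired analysis was possible because each group has 1 library, and for the same reason no replicate could be left out. The median half-width of the counting intervals was 0.21 on the log2 scale.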

Other observations

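P450 enzymes whose descriptions do not name P450 were outside the text match, and 10 such genes were measured. Trichodiene oxygenase (TRI4, TBIU016166), which in Fusarium oxidises a sesquiterpene toward trichothecenes, had 585 FPKM in the irradiated and 774 FPKM in the unirradiated library (log2 ratio -0.40, counting interval -0.53 to -0.44), a level exceeded among the P450 genes by Cyp4d10 alone. Benzoate 4-monooxygenase (bphA, TBIU013139), which in Aspergillus hydroxylates benzoate, had 25.8 FPKM in the irradiated and 60.5 FPKM in the unirradiated library (log2 ratio -1.20). A gene closest to pisatin demethylase (PDAT9, TBIU018773), an enzyme by which a pea pathogen detoxifies a plant defence compound, had 35.5 FPKM in the irradiated and 28.5 FPKM in the unirradiated library (log2 ratio 0.31). Genes closest to tryprostatin B 6-hydroxylase (ftmP450-1) other than the isoforms of the CYP67 gene had log2 ratios of 0.29 (TBIU018412) and 0.70 (TBIU014485). With all such descriptions added, 7 of 80 genes were higher and 8 lower by 2-fold or more, against 9.32% and 8.68% of all genes. This list was written after the data had been seen.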
